A study of Mus musculus with 24 samples.

Results

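The p53 and apoptosis regulator genes are 10 mouse genes named by symbol: the transcription factor gene Trp53 (p53), its ubiquitin ligase Mdm2, the cell cycle inhibitor Cdkn1a (p21), the BH3-only genes Bcl2l11 (BIM), Bbc3 (PUMA) and Bid, the survival genes Mcl1 and Bcl2l1 (BCL-XL), and the pore-forming effectors Bax and Bak1. All 10 were found by Ensembl ID among 29759 genes in each of 2 tables of FPKM, a fragment count scaled for transcript length and sequencing depth. All cells came from E14, a mouse embryonic stem cell line, and were in 2 states. Epiblast-like cells (EpiLC) were collected at day 3 in N2B27 medium with the growth factors activin A (20 ng/ml) plus bFGF (12 ng/ml). Naive embryonic stem cells (nESC) were kept in N2B27 medium with LIF and inhibitors of MEK (PD0325901) and GSK3 (CHIR99021). From each state, chromatin, nucleoplasm, cytoplasm and whole-cell (total) RNA were each sequenced in 3 libraries, for 8 groups and 24 libraries. Nuclei were isolated through a sucrose layer. Every group is one cell line, and the labels do not say that the 3 libraries of a group are separate cultures, so the p-values cover only the variation among these libraries, which may be technical.

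p53 is a transcription factor that activates genes of cell cycle arrest, DNA repair and apoptosis, and MDM2, itself a p53 target, marks it for degradation. Apoptosis through mitochondria is set by the BCL-2 family: BH3-only proteins bind and neutralise the survival proteins or activate BAX and BAK, which open the outer mitochondrial membrane. Mouse embryonic stem cells are known for abundant p53 and a fast cell cycle, and cells of the early epiblast for a low threshold to apoptosis.

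In total RNA the sum of 8 naive markers was 34.6 to 38.1 FPKM in EpiLC and 1026 to 1058 FPKM in nESC, and the sum of 6 formative markers was 1111 to 1147 FPKM in EpiLC and 31.6 to 32.9 FPKM in nESC. Of 16 markers of other cell types, 13 in EpiLC and 12 in nESC were under 1 FPKM, none was at 0, and their sum was 13.97 to 16.1 FPKM in EpiLC and 22.1 to 26.8 FPKM in nESC; their part in the results was not tested. From the steps between low values, 1 FPKM in a 2 kb transcript stood for 24.2 to 93.5 fragments, with the fewest in cytoplasm (24.2 to 44.4) and chromatin (31.1 to 48.3). By that measure, for a 2 kb transcript, the values of the 10 genes stood for at least about 51.8 fragments. That minimum was Bcl2l11 at 2.14 FPKM in nESC cytoplasm replicate 1. The exons of Bcl2l11 cover 8029 bases, so 51.8 is not its own fragment count, and counts by each gene's length were not computed. EpiLC chromatin replicate 3 and EpiLC cytoplasm replicate 3 stood apart from their groups, with a Pearson's r to the mean of the other libraries of 0.965 and 0.989 across 11704 genes, which are not independent replicates. Where leaving out both changed a call or a count for the 10 genes, that value is given beside the result. Chromatin libraries agreed less than those of the other fractions in both states, with r of 0.965 to 0.986 in EpiLC and 0.976 to 0.988 in nESC. All 4 chromatin-retained noncoding RNAs that served as a check were called higher in chromatin than in cytoplasm in EpiLC and 3 of 4 in nESC, and all 5 abundant cytoplasmic messages were called lower in both states.

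The genes lie on 7 chromosomes of GRCm38, all annotated as protein-coding. Trp53 spans chr11:69580359-69591873 on the plus strand, Mdm2 chr10:117688875-117710758 on the minus strand and Cdkn1a chr17:29090976-29100727 on the plus strand. The BH3-only genes are at chr2:128126038-128162547 (Bcl2l11, plus), chr7:16308393-16318205 (Bbc3, plus) and chr6:120891930-120916853 (Bid, minus). Mcl1 lies at chr3:95658788-95663176 (plus), Bcl2l1 at chr2:152780668-152831728 (minus), Bax at chr7:45461697-45466898 (minus) and Bak1 at chr17:27019810-27029009 (minus).

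Because several of these genes are textbook p53 targets, the 250 bases upstream of their annotated starts (RefSeq, GRCm38.p6, 5′ to 3′ on the gene's strand, the window nearest the gene's 5′ end) were searched on both strands for the p53 half-site, the unit of the p53 response element. It was found in 4 of the 10 windows (Trp53, Mdm2, Cdkn1a and Bax), against 7.13% of 32851 windows of the same length, and Cdkn1a held a pair, as did 0.259% of all windows. Shown are 3 of the targets with a match, with the half-sites in capitals, at chr17:29090729-29090978 (Cdkn1a, plus strand), chr10:117710759-117711008 (Mdm2, minus strand) and chr7:45466899-45467148 (Bax, minus strand).
Cdkn1a: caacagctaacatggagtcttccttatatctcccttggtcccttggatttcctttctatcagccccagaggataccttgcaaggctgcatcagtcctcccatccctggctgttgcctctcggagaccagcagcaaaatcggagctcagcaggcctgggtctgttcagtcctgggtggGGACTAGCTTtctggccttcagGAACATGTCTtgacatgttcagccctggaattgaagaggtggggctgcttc
Mdm2: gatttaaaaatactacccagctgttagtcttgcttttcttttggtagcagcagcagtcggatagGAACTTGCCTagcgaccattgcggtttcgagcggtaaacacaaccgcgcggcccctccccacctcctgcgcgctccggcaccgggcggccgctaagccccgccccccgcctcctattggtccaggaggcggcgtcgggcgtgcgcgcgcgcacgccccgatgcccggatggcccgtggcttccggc
Bax: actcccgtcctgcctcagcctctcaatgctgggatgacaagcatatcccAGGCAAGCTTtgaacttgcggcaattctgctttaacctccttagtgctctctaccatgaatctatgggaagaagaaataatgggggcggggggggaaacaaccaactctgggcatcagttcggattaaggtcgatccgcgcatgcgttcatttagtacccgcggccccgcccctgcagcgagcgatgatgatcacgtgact
Bcl2l11, the gene with the largest level difference between the states here, held no half-site. Its window (chr2:128125788-128126037, plus strand) is shown with the forkhead core GTAAACA in capitals, since Bcl2l11 is a known target of FOXO factors. GTAAACA was in 2 of the 10 windows (Bcl2l11 and Mdm2, where it is not marked above) and in 3.17% of all windows.
Bcl2l11: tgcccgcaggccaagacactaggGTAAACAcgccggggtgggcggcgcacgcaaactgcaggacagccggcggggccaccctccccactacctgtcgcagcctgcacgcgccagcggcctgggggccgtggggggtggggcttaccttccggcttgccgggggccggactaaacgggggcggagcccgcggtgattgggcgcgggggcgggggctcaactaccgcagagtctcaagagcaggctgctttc
Of the other motifs searched, GGGCGG was in 6 of the 10 windows and 32.7% of all, CCAAT in 3 and 33.8%, TATAAA in 1 and 12.4%, and CACGTG in 1 and 6.02%. These matches describe letters in short windows, not binding.

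Levels in whole cells placed Bax far above the other genes in both states and Bcl2l11 lowest in nESC. In EpiLC total RNA the order was Bax at 250 ± 5.45 FPKM (SD, n = 3, as for every ± here), Mcl1 at 103 ± 0.662, Mdm2 at 66.4 ± 1.81, Trp53 at 46.0 ± 0.721, Bak1 at 23.8 ± 1.41, Bbc3 at 23.6 ± 1.84, Bcl2l11 at 23.3 ± 0.612, Bid at 21.6 ± 0.879, Bcl2l1 at 15.7 ± 0.196 and Cdkn1a at 9.05 ± 0.453. Bak1, Bbc3 and Bcl2l11 overlapped one another there, and the range of Bid overlapped those of Bak1 and Bbc3. In nESC total RNA the order was Bax at 301 ± 16.8 FPKM, Mcl1 at 116 ± 3.70, Mdm2 at 51.0 ± 2.01, Trp53 at 45.8 ± 4.203, Bid at 39.6 ± 0.587, Bak1 at 20.0 ± 0.717, Cdkn1a at 14.3 ± 0.541, Bcl2l1 at 10.3 ± 1.14, Bbc3 at 8.02 ± 1.48 and Bcl2l11 at 2.37 ± 0.0262. The libraries of Mdm2 and Trp53 overlapped in nESC, as did those of Bcl2l1 and Bbc3. Both effectors and both survival genes thus kept the same order in each state, while Bcl2l11 and Bbc3 were the lowest of the 10 genes in nESC but not in EpiLC.

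**Figure D1:**
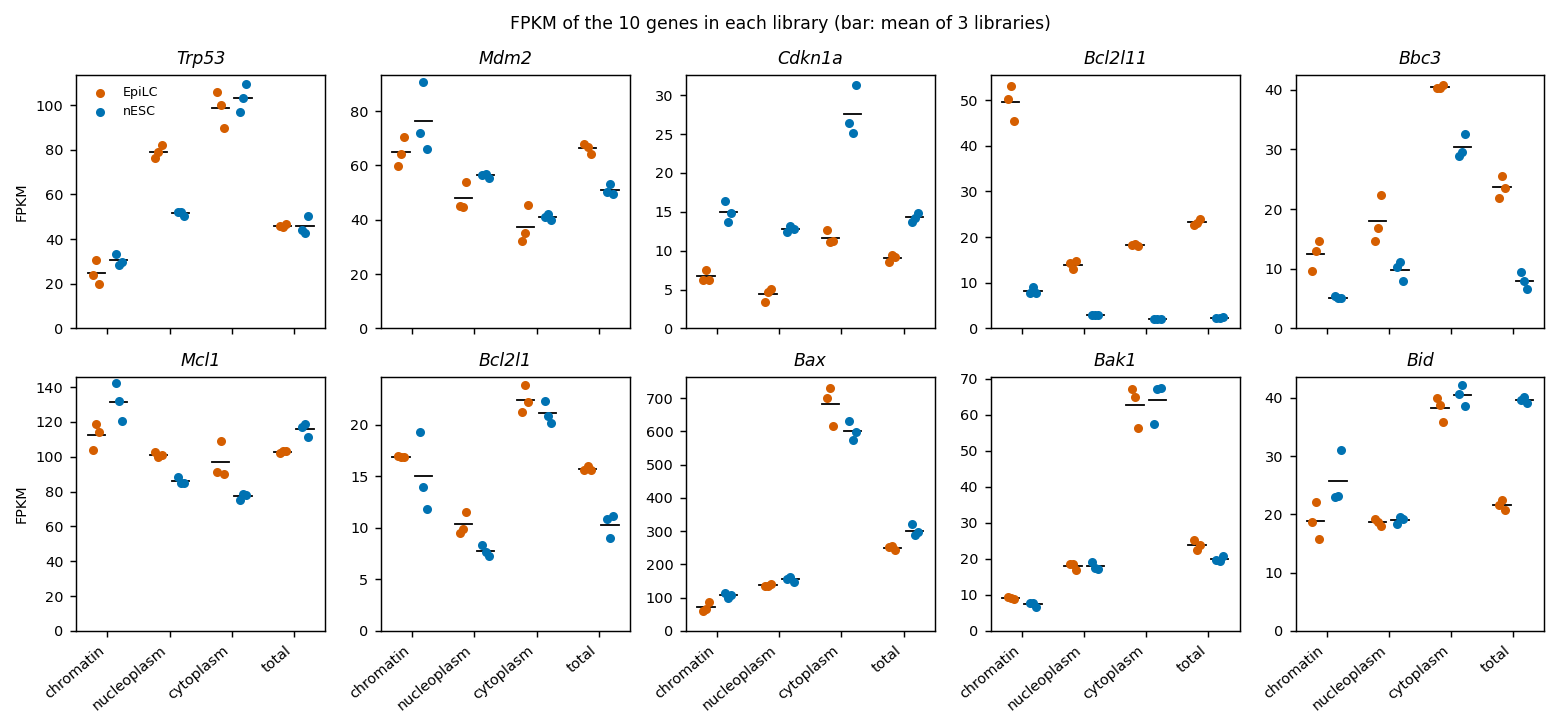
FPKM (linear axis from 0) of the 10 genes in each of the 24 libraries, by RNA fraction, with EpiLC left of nESC; points are libraries and bars are means of 3. Bcl2l11 is higher in EpiLC in all 4 fractions, Cdkn1a lower in EpiLC in all 4, and Bax and Bak1 are highest in cytoplasm in both states.

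The 2 tables were normalized separately, so EpiLC and nESC levels are set side by side with no test. Differences are given as EpiLC minus nESC of mean log2(FPKM + 0.5), which understates the change of low genes. In these bulk samples, fewer cells with a transcript and less RNA per cell cannot be told apart. At least 2-fold higher levels in EpiLC total RNA were seen for 2 of the 10 genes (Bcl2l11 and Bbc3) and at least 2-fold lower levels for 0, against 18.3% and 12.9% of 13227 genes. In chromatin 2 of the 10 genes were at least 2-fold higher (Bcl2l11 and Bbc3) and 1 lower (Cdkn1a), against 12.7% and 10.2%. In nucleoplasm and in cytoplasm 1 was higher (Bcl2l11) and 1 lower (Cdkn1a), against 14.6% and 13.2% in nucleoplasm and 14.4% and 12.1% in cytoplasm. In total RNA the median over all genes was 0.01 as deposited, 0.04 with each library centred on its median and 0.23 with each library scaled to one sum of FPKM. As deposited it was 0.01 in chromatin, 0.12 in nucleoplasm and 0.13 in cytoplasm.

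Bcl2l11 encodes BIM, a BH3-only protein that binds all the survival proteins and activates BAX. It had 22.7, 23.2 and 23.9 FPKM in EpiLC total RNA, against 2.35, 2.36 and 2.40 FPKM in nESC total RNA, a 9.81-fold ratio of means. The log2 difference was 3.05 in total RNA, 2.85 in cytoplasm, 2.07 in nucleoplasm and 2.51 in chromatin. In chromatin the libraries read 50.3, 53.1 and 45.5 FPKM in EpiLC, against 7.83, 9.18 and 7.84 FPKM in nESC. In cytoplasm they read 18.3, 18.4 and 18.1 FPKM in EpiLC, against 2.14, 2.11 and 2.06 FPKM in nESC. The states did not overlap in any fraction, and the difference was above 1.9 on the log2 scale under every pseudocount and scaling tried.

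Bbc3 encodes PUMA, a BH3-only protein and a direct p53 target. It had 21.9, 25.6 and 23.5 FPKM in EpiLC total RNA, against 9.54, 7.93 and 6.58 FPKM in nESC total RNA, a log2 difference of 1.51. The difference was smaller in cytoplasm, where the libraries had 40.2, 40.3 and 40.8 FPKM in EpiLC, against 28.8, 29.5 and 32.7 FPKM in nESC (log2 difference 0.41). In chromatin Bbc3 had 9.67, 12.9 and 14.6 FPKM in EpiLC, against 5.39, 5.04 and 5.07 FPKM in nESC (1.17), and in nucleoplasm the difference was 0.84. The states did not overlap in any of the 4 fractions.

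Cdkn1a encodes p21, an inhibitor of cyclin-dependent kinases and the classical p53 target. It ran the other way, with 8.55, 9.44 and 9.16 FPKM in EpiLC total RNA, against 13.7, 14.3 and 14.8 FPKM in nESC total RNA. The log2 difference was -0.63 in total RNA, -1.20 in cytoplasm, -1.46 in nucleoplasm and -1.11 in chromatin. In nucleoplasm the libraries had 3.42, 4.63 and 5.10 FPKM in EpiLC, against 12.4, 13.1 and 12.8 FPKM in nESC. The states did not overlap in any fraction, and the sign was the same with the libraries centred or scaled to one sum.

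In whole cells Trp53 was close between the states, and Mdm2, the gene of its ligase, was higher in EpiLC. Trp53 had 45.7, 45.6 and 46.9 FPKM in EpiLC total RNA, against 44.1, 42.7 and 50.6 FPKM in nESC total RNA, and the states overlapped. In nucleoplasm, however, Trp53 had 76.4, 79.0 and 82.2 FPKM in EpiLC, against 52.2, 52.1 and 50.1 FPKM in nESC, with no overlap and a log2 difference of 0.62. Mdm2 had 67.8, 67.0 and 64.4 FPKM in EpiLC total RNA, against 50.3, 53.2 and 49.4 FPKM in nESC total RNA, with no overlap. Its log2 difference there was 0.38, and 0.60 with scaling to one sum. In the other 3 fractions its difference was -0.24 to -0.14 (0.04 in cytoplasm with scaling to one sum), and the states overlapped in chromatin and cytoplasm.

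Among the remaining genes Bid, whose product is cut by caspase-8 into an active fragment, had 21.5, 22.5 and 20.7 FPKM in EpiLC total RNA, against 39.5, 40.2 and 39.0 FPKM in nESC total RNA (log2 difference -0.86). In nucleoplasm and cytoplasm the Bid libraries of the states overlapped, with differences of -0.03 and -0.08 (0.10 in cytoplasm with scaling to one sum). Bcl2l1, the survival gene of BCL-XL, had 15.6, 15.9 and 15.6 FPKM in EpiLC total RNA, with a mean of 10.3 ± 1.14 FPKM in nESC total RNA and no overlap (0.59). In nucleoplasm the Bcl2l1 difference was 0.39 with no overlap, but the states overlapped in chromatin (0.19) and cytoplasm (0.08). Mcl1, a short-lived survival protein, stood within 0.32 of zero in each fraction as deposited (-0.17 in total RNA, 0.31 in cytoplasm). The Mcl1 libraries of the states did not overlap in any fraction. Bax and Bak1, the effectors, differed by -0.27 and 0.25 in total RNA, and their states overlapped in cytoplasm. In chromatin they differed by -0.62 and 0.28, with no overlap. Under scaling to one sum the Bax difference in total RNA was -0.05 and that of Mcl1 changed sign to 0.05, while the Mcl1 difference in cytoplasm was 0.50.

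**Figure D2:**
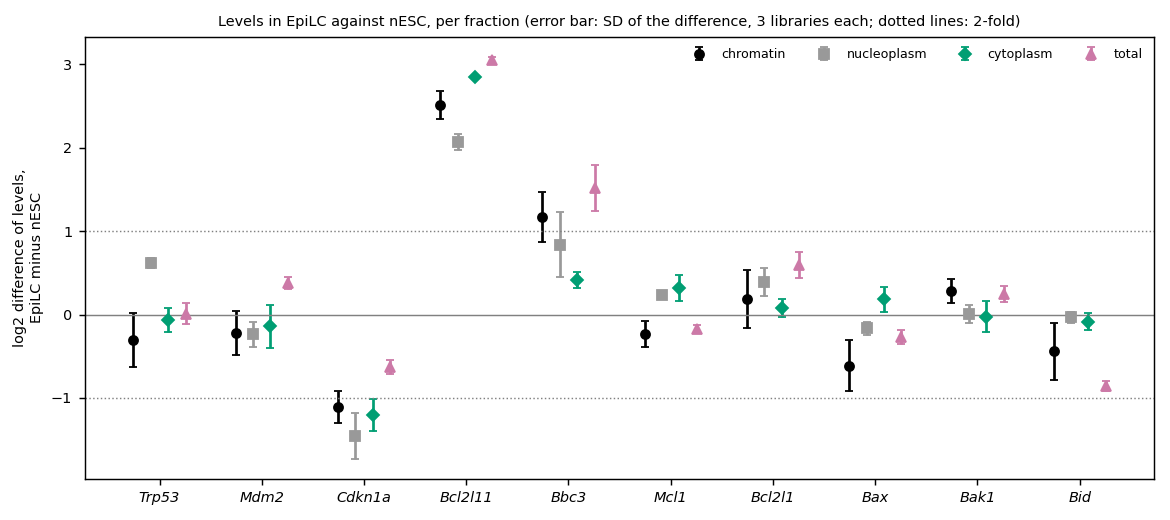
Log2 difference of levels, EpiLC minus nESC, for each gene in the 4 fractions; points are differences of means of log2(FPKM + 0.5) and bars the SD of the difference (3 libraries each). Bcl2l11 lies between 2.07 and 3.05, Cdkn1a below 0 in all 4 fractions, and Bid is furthest below 0 in total RNA.

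Ratios of 2 genes within a library do not depend on how that library was scaled, and were taken as a description after the values had been seen. Bcl2l11 over Mcl1 was 0.226 ± 0.00470 in EpiLC total RNA and 0.0205 ± 0.000863 in nESC total RNA, and 0.190 ± 0.0184 in EpiLC cytoplasm and 0.0271 ± 0.00108 in nESC cytoplasm. Bbc3 over Mcl1 was 0.230 ± 0.0168 in EpiLC total RNA and 0.0691 ± 0.0115 in nESC total RNA, but the libraries overlapped in cytoplasm, at 0.421 ± 0.0448 in EpiLC and 0.391 ± 0.0224 in nESC. The sum of the 3 BH3-only genes over the sum of the 2 survival genes was 0.577 ± 0.0188 in EpiLC total RNA and 0.396 ± 0.00578 in nESC total RNA, with an overlap in cytoplasm (0.818 ± 0.0746 in EpiLC and 0.740 ± 0.00522 in nESC). Bax over Bcl2l1 was lower in EpiLC total RNA, at 15.9 ± 0.193, than in nESC total RNA, at 29.4 ± 2.61, and overlapped in cytoplasm. Cdkn1a over Mdm2, 2 targets of p53, was lower in EpiLC in all 4 fractions, at 0.136 ± 0.00898 in EpiLC total RNA and 0.281 ± 0.0173 in nESC total RNA. Mdm2 over Trp53 was 0.603 ± 0.0472 in EpiLC nucleoplasm and 1.09 ± 0.0130 in nESC nucleoplasm, while in total RNA it was the higher one in EpiLC, at 1.44 ± 0.0608, against 1.12 ± 0.136 in nESC.

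**Figure D3:**
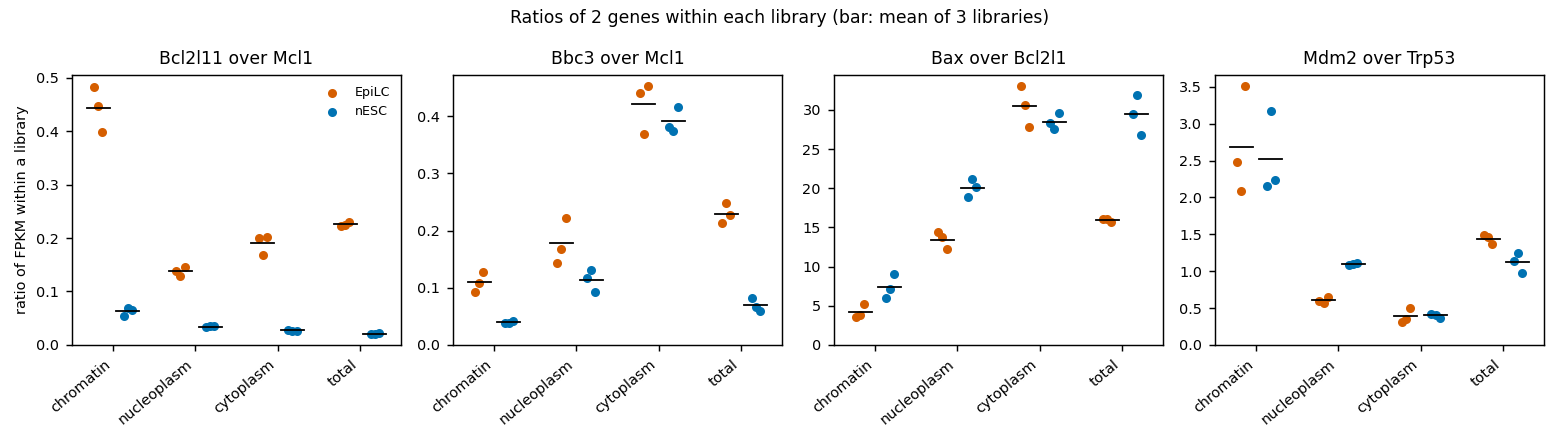
Ratios of FPKM within each library (linear axis from 0) by fraction, with EpiLC left of nESC; points are libraries and bars are means of 3. Bcl2l11 over Mcl1 is separated in every fraction, whereas Bbc3 over Mcl1 and Bax over Bcl2l1 overlap between the states in cytoplasm.

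The comparison of chromatin with cytoplasm asks where in the cell the transcripts of each gene were found. Within each state, limma was fitted to log2(FPKM + 0.5) over all genes that averaged 1 FPKM or more in the table, a filter that all 10 passed, and a call needed an adjusted p (Benjamini-Hochberg) below 0.05 together with a fold of 2 or more. The sign was the same in EpiLC and nESC for all 10 genes. In EpiLC 1 gene was called higher in chromatin (Bcl2l11) and 5 lower (Trp53, Bbc3, Bax, Bak1 and Bid), against a background of 29.1% and 28.4% of 12834 genes, or 57.6% in either direction. In nESC 1 was called higher (Bcl2l11) and 4 lower (Trp53, Bbc3, Bax and Bak1), against 31.8% and 29.7% of 12592 genes, or 61.5% in either direction. Without both EpiLC libraries that stood apart, 5 of the 10 genes were called in EpiLC, with Bid at -0.94 and no longer called. The median over the 10 genes was -0.89 in EpiLC and -0.76 in nESC, and over all genes -0.00 and 0.04.

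These directions hold on the scale of the deposited values, which were not centred for this fit. On that scale the median over all genes was -0.00 in EpiLC and 0.04 in nESC. FPKM sums were at most 504959 in chromatin libraries and at least 1555123 in cytoplasm libraries. Scaling each library to one sum therefore moved the median over all genes to 1.69 in EpiLC and 1.84 in nESC. Under that scaling 4 of the 10 genes were called higher in chromatin and 1 lower in EpiLC, and 6 higher and 1 lower in nESC. Of all genes, 8408 were then called higher and 665 lower of 12834 in EpiLC, and 8406 and 751 of 12592 in nESC. Mdm2 (2.61 in EpiLC and 2.82 in nESC), Mcl1 (2.05 and 2.72) and Bcl2l1 (1.40 and 1.42) became called higher in both states, and Bid (1.28) and Cdkn1a (1.07) in nESC. Cdkn1a in EpiLC turned to 0.98, under the threshold.

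Bax and Bak1 were the genes most strongly weighted to the cytoplasm. Bax had 60.0, 64.8 and 87.7 FPKM in EpiLC chromatin, against 701, 730 and 615 FPKM in EpiLC cytoplasm, a log2 difference of -3.27 (SE 0.13, adjusted p = 1.93e-10). In nESC it had 115, 99.7 and 108 FPKM in chromatin, against 631, 574 and 597 FPKM in cytoplasm (-2.48, SE 0.07, adjusted p = 3.58e-12). The fractions lay far apart in both states, and EpiLC chromatin replicate 3 was the highest of its group. Bak1 had 9.43, 9.02 and 8.73 FPKM in EpiLC chromatin, against 67.3, 64.8 and 56.3 FPKM in EpiLC cytoplasm (-2.72, SE 0.09, adjusted p = 9.15e-11). In nESC chromatin Bak1 had 7.84, 7.78 and 6.55 FPKM, against 57.6, 67.2 and 67.5 FPKM in nESC cytoplasm (-3.03, SE 0.09, adjusted p = 3.87e-12). Both effectors stayed on the cytoplasmic side under scaling to one sum, though only Bax in EpiLC and Bak1 in nESC remained called, and both kept their calls after every library was corrected for the genes' exonic length and GC. Exons of Bak1 overlap those of the antisense gene Ggnbp1, and exons of Bax those of Gm45808 on the same strand; the libraries were strand-specific per the labels, but the use of strand in counting is not given in the sources used here.

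Trp53 was also weighted to the cytoplasm. It had 24.1, 30.7 and 20.1 FPKM in EpiLC chromatin, against 106, 99.9 and 89.8 FPKM in EpiLC cytoplasm, a log2 difference of -1.97 (SE 0.13, adjusted p = 1.41e-08). In nESC chromatin it had 33.5, 28.6 and 29.5 FPKM, against 96.8, 103 and 109 FPKM in nESC cytoplasm (-1.74, SE 0.08, adjusted p = 3.12e-10). The call held after the length and GC correction in both states and was lost under scaling to one sum, at -0.15 in EpiLC and 0.22 in nESC. Mdm2 stood on the other side of the median in both states. It had 59.9, 64.0 and 70.5 FPKM in EpiLC chromatin, against 32.2, 35.1 and 45.3 FPKM in EpiLC cytoplasm, a difference of 0.79 that passed the adjusted p (6.06e-05) but not the fold. The value was 0.87 in nESC (adjusted p = 1.55e-06), also under 2-fold. Across the 8 group means of log2 values, each centred within its state, Trp53 and Mdm2 had a Pearson's r of -0.90, given as a description.

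The BH3-only genes were split between the compartments. Bcl2l11 was the only one of the 10 genes called higher in chromatin, with a log2 difference from cytoplasm of 1.41 in EpiLC (SE 0.08, adjusted p = 6.54e-09) and 1.75 in nESC (SE 0.10, adjusted p = 1.14e-09), from the library values given above. After the length and GC correction it was 0.94 in EpiLC, under the threshold, and 1.13 in nESC. Bbc3 was lower in chromatin, at -1.68 in EpiLC (SE 0.16, adjusted p = 5.22e-07) and -2.44 in nESC (SE 0.14, adjusted p = 1.69e-09). Its EpiLC call was lost with the length and GC correction (-0.77) and the sign turned under scaling to one sum (0.11). Bid had 18.7, 22.0 and 15.7 FPKM in EpiLC chromatin, against 39.98, 38.7 and 35.9 FPKM in EpiLC cytoplasm, a difference of -1.01 (SE 0.11, adjusted p = 1.93e-06). In nESC it was -0.66 (adjusted p = 4.23e-05) and not called. The EpiLC call of Bid lay at the threshold: it was lost without chromatin replicate 3 (-0.90), without cytoplasm replicate 1 (-0.98) and with the length and GC correction (-0.40), and the sign turned under scaling to one sum (0.79). Exons of Bid overlap those of the antisense gene Bcl2l13.

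Cdkn1a and the survival genes were not called between chromatin and cytoplasm in either state. Cdkn1a had 6.24, 7.58 and 6.23 FPKM in EpiLC chromatin, against 12.6, 11.2 and 11.2 FPKM in EpiLC cytoplasm (log2 difference -0.76). In nESC it had 16.4, 13.7 and 14.8 FPKM in chromatin, against 26.4, 25.1 and 31.3 FPKM in cytoplasm (-0.86). Centring the libraries took the nESC value to -1.12, past the threshold, and scaling to one sum to 1.07. Bcl2l1 stood at -0.40 in EpiLC and -0.50 in nESC, and at 1.40 and 1.42 with scaling to one sum. Mcl1 had 104, 119 and 114 FPKM in EpiLC chromatin, against 91.3, 109 and 90.1 FPKM in EpiLC cytoplasm, which overlap (0.22). In nESC chromatin Mcl1 had 143, 132 and 120 FPKM, against 75.5, 78.7 and 78.3 FPKM in nESC cytoplasm, with no overlap (0.76, adjusted p = 1.94e-07, under 2-fold).

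**Figure D4:**
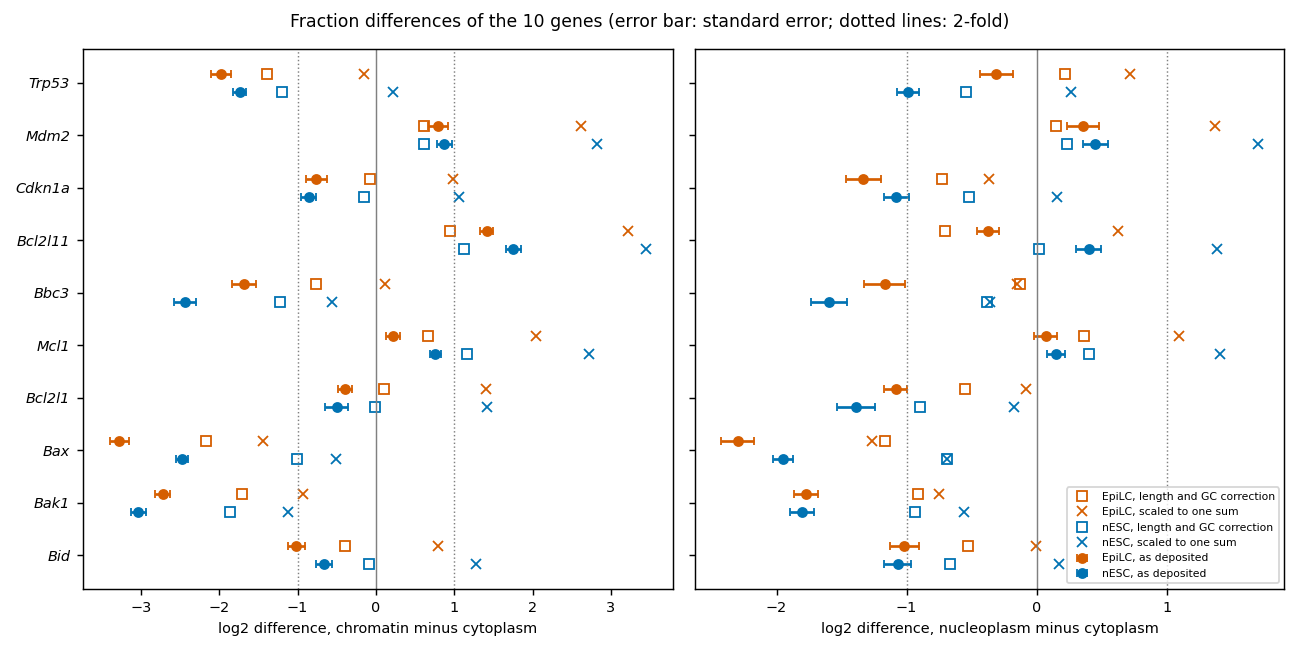
Log2 differences of chromatin (left) and nucleoplasm (right) minus cytoplasm for each gene, EpiLC above nESC; filled points are the fitted values with their standard errors, open squares the values after correction for length and GC content, and crosses the values with each library scaled to one sum of FPKM. Among the filled points, Bax and Bak1 lie furthest below 0 in both panels, and only Bcl2l11 is above the 2-fold line for chromatin.

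Between nucleoplasm and cytoplasm 0 of the 10 genes were called higher and 6 lower in each state (Cdkn1a, Bbc3, Bcl2l1, Bax, Bak1 and Bid), against 20.1% higher and 19.1% lower of all genes in EpiLC (39.2% together) and 20.5% and 19.5% in nESC (39.9% together). The values ran from -2.30 (Bax) to -1.02 (Bid) in EpiLC and from -1.95 (Bax) to -1.07 (Bid) in nESC. Bcl2l1 had 9.48, 9.92 and 11.6 FPKM in EpiLC nucleoplasm, against 21.2, 23.8 and 22.2 FPKM in EpiLC cytoplasm (-1.08, SE 0.09, adjusted p = 3.18e-07). In nESC nucleoplasm it had 8.28, 7.65 and 7.28 FPKM, against 22.2, 20.9 and 20.2 FPKM in nESC cytoplasm (-1.39, SE 0.15, adjusted p = 1.51e-06). Trp53 stood at -0.31 in EpiLC and at -0.99 in nESC, neither called. The nESC value lay at the threshold and was called without nucleoplasm replicate 1 (-1.002), nucleoplasm replicate 2 (-1.001) or cytoplasm replicate 1 (-1.04). After the length and GC correction 1 of the 10 genes remained called in EpiLC (Bax) and 0 in nESC. The share of all genes called after that correction is not given, so the loss does not set the 10 genes apart. Scaling to one sum left Bax in EpiLC as the only gene called lower, with 2 called higher in EpiLC and 3 in nESC. Of all genes, 5164 were then called higher and 221 lower in EpiLC, and 6132 and 128 in nESC.

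Chromatin set against nucleoplasm separates the 2 nuclear compartments. Bcl2l11 was called higher in chromatin in both states, at 1.79 in EpiLC (SE 0.08, adjusted p = 5.23e-09) and 1.35 in nESC (SE 0.10, adjusted p = 4.4e-08), against 16% of all genes called higher in EpiLC and 17.4% in nESC. In either direction 2 of the 10 genes were called in each state, against 32.7% of all genes in EpiLC and 34.7% in nESC. Trp53 was called lower in EpiLC chromatin (-1.66, adjusted p = 2.03e-07; 16.7% of all genes called lower) and stood at -0.75 in nESC. Bak1 was called lower in nESC chromatin (-1.23, adjusted p = 7.18e-08; 17.3% of all genes), and stood at -0.95 in EpiLC. Without both EpiLC libraries that stood apart, Bax was called as well, at -1.14.

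Set against total RNA, 1 gene was called higher in chromatin (Bcl2l11, 1.07 in EpiLC and 1.61 in nESC) and 2 lower (Bax, -1.83 and -1.48, and Bak1, -1.35 and -1.38), against 15.7% higher and 16.2% lower of all genes in EpiLC (31.9% together) and 23.7% and 21.1% in nESC (44.7% together). Bbc3 in EpiLC was called lower as well without both libraries that stood apart or without chromatin replicate 3 alone (-1.04), and Trp53 without chromatin replicate 2 (-1.05). With the libraries centred Bcl2l11 in EpiLC was 0.98, under the threshold, and with the length and GC correction 0.80. In cytoplasm 3 genes were called higher than in EpiLC total RNA (Trp53 at 1.09, Bax at 1.44 and Bak1 at 1.38; background 12.7% higher, 17.6% lower and 30.3% together), and 4 higher than in nESC total RNA (Trp53 at 1.16, Bbc3 at 1.87, Bcl2l1 at 1.00 and Bak1 at 1.65; background 16% higher, 19.4% lower and 35.4% together). In neither state was one of the 10 genes called lower in cytoplasm. Bcl2l1 lay at the threshold and was lost with a pseudocount of 1 (0.97). Nucleoplasm differed least from total RNA. No gene was called in EpiLC by limma, against 4.81% of all genes called higher, 3.86% lower and 8.67% together. Without the fold threshold, 8 of the 10 genes had an unadjusted p under 0.05 and 7 an adjusted one. The share of all genes at those p-values is not given. In nESC 1 was called (Bid, -1.04, adjusted p = 2.49e-06), against 8.96% higher, 5.95% lower and 14.9% together. The 6 pairs share their libraries, so they are not independent of one another.

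The difference of a fraction contrast between the states was tested as an interaction over all 24 libraries, each centred on its median. By limma 0 of the 10 genes were called for chromatin with cytoplasm, against 5.25% higher, 4.41% lower and 9.65% together of 11704 genes. For nucleoplasm with cytoplasm 0 were called, against 1.07% higher, 1.48% lower and 2.55% together. Without the fold threshold, 5 and 4 of the 10 genes had an unadjusted p under 0.05 in the 2 tests, and the share of all genes at that p is not given. Changes under 2-fold passed the adjusted p in 6 cases. The share of all genes passing the adjusted p alone is not given either, so these cases do not set the 10 genes apart. Between chromatin and cytoplasm the EpiLC minus nESC value was 0.85 for Bbc3 (SE 0.22, adjusted p = 0.0051), -0.70 for Bax (SE 0.16, adjusted p = 0.00177), -0.44 for Mcl1 and 0.41 for Bak1. Between nucleoplasm and cytoplasm it was 0.75 for Trp53 (SE 0.15, adjusted p = 0.0018) and -0.71 for Bcl2l11 (SE 0.11, adjusted p = 0.000166). Mdm2 had 0.02 (SE 0.16) and -0.03 (SE 0.16) in the 2 tests.

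What the 10 genes share with their fraction pattern was described over the genes with no test. Against log2 exonic length, the log2 difference of chromatin and cytoplasm gave a Pearson's r of 0.87 in EpiLC and 0.84 in nESC, and against GC content -0.79 and -0.84 (n = 10 genes). The same correlations over all tested genes are not given, so these values do not set the 10 genes apart. Bcl2l11, the longest at 8029 exonic bases, had the highest difference, and Bax, the shortest at 1576, the lowest in EpiLC. By likeness of pattern, the gene closest to Bax over the 8 group means (log2, each centred on the mean of its state, 8230 genes searched) was Prelid1 (Pearson's r 0.999), to Bak1 Mcrip2 (0.999), to Bid Coa7 (0.999), to Trp53 Rbm22 (0.994), to Bbc3 Pak4 (0.993), to Bcl2l11 Nrg4 (0.989), to Mdm2 Ric8b (0.987), to Bcl2l1 Sapcd2 (0.986), to Mcl1 Zfp639 (0.978) and to Cdkn1a Fkbp1a (0.975). Ei24, on the list of p53 target genes, was the second closest to Cdkn1a (0.970). Among the 10 genes, Bbc3 and Bak1 (0.97) and Bax and Bak1 (0.96) were alike. All of these rest on 8 points made from the same libraries.

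The wider p53 pathway showed both directions between chromatin and cytoplasm, where 29.1% of all genes were called higher and 28.4% lower in EpiLC, and 31.8% and 29.7% in nESC. Of 30 other p53 target genes, 28 were tested in EpiLC, with 5 called higher in chromatin and 5 lower, and 27 in nESC, with 7 higher and 8 lower; the medians were -0.40 in EpiLC and -0.26 in nESC. Trp53inp1, a p53-induced nuclear protein gene, had 81.2 ± 12.4 FPKM in EpiLC chromatin and 21.1 ± 5.66 in EpiLC cytoplasm (log2 difference 1.94, SE 0.16, adjusted p = 1.3e-07). The death receptor gene Eda2r (2.00) and the translesion polymerase gene Polk (2.38) were also higher in chromatin there. Ddit4, an mTORC1 inhibitor, had 26.0 ± 5.64 FPKM in EpiLC chromatin and 127 ± 6.16 in EpiLC cytoplasm (-2.29, SE 0.14, adjusted p = 1.07e-08), and Dcxr (-2.42) and Phlda3 (-1.97) were lower as well. The same 6 genes led the list in nESC. Of 24 regulators and relatives of p53, 22 were tested in each state, with 11 higher and 3 lower in EpiLC (median 1.12) and 13 higher and 3 lower in nESC (median 1.32). The DNA damage kinase gene Atr (3.56) and the MDM2 partner Mdm4 (2.92) were higher in EpiLC chromatin, and Cdkn2a, which gives ARF and INK4A, was lower (-3.43, SE 0.17, adjusted p = 1.32e-09). With each library scaled to one sum, the targets had 20 higher and 0 lower in EpiLC and 19 and 1 in nESC, and the regulators 19 and 1 in each state, beside the 8408 higher and 665 lower of all genes in EpiLC and 8406 and 751 in nESC under that scaling. Without both EpiLC libraries that stood apart the EpiLC counts were 6 higher and 5 lower for the targets and 12 and 3 for the regulators.

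The lists of the apoptosis machinery had medians below 0 in both states. Of 17 other BCL-2 family genes, 12 were tested in EpiLC (0 higher, 5 lower, median -0.89) and 10 in nESC (0 higher, 6 lower, median -1.21). Bok, an effector-like member, had 3.74 ± 1.80 FPKM in EpiLC chromatin and 26.2 ± 5.65 in EpiLC cytoplasm (-2.74, SE 0.28, adjusted p = 9.74e-07), and the BH3-only gene Bad stood at -1.79 in EpiLC and -2.14 in nESC. Of 26 caspase pathway genes, 24 were tested in EpiLC (6 higher, 11 lower, median -0.72) and 25 in nESC (7 higher, 9 lower, median -0.65). The inhibitor of apoptosis genes were on both sides: Birc6 (3.25 in EpiLC) and Xiap (2.31) were higher in chromatin and Birc5, or survivin, lower (-2.52). Casp2, an initiator caspase gene, was higher in chromatin (2.06 in EpiLC and 2.83 in nESC). Of 6 other CDK inhibitor genes, Cdkn2a among them again, 3 of 5 tested in EpiLC and 4 of 6 in nESC were lower in chromatin, and none was higher. Under scaling to one sum the other BCL-2 family genes had 4 higher and 1 lower in EpiLC and 3 and 0 in nESC, and the caspase pathway genes 11 and 0 in EpiLC and 14 and 0 in nESC, beside the same counts over all genes. Without both EpiLC libraries the caspase pathway genes had 7 higher and 10 lower in EpiLC.

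**Figure D5:**
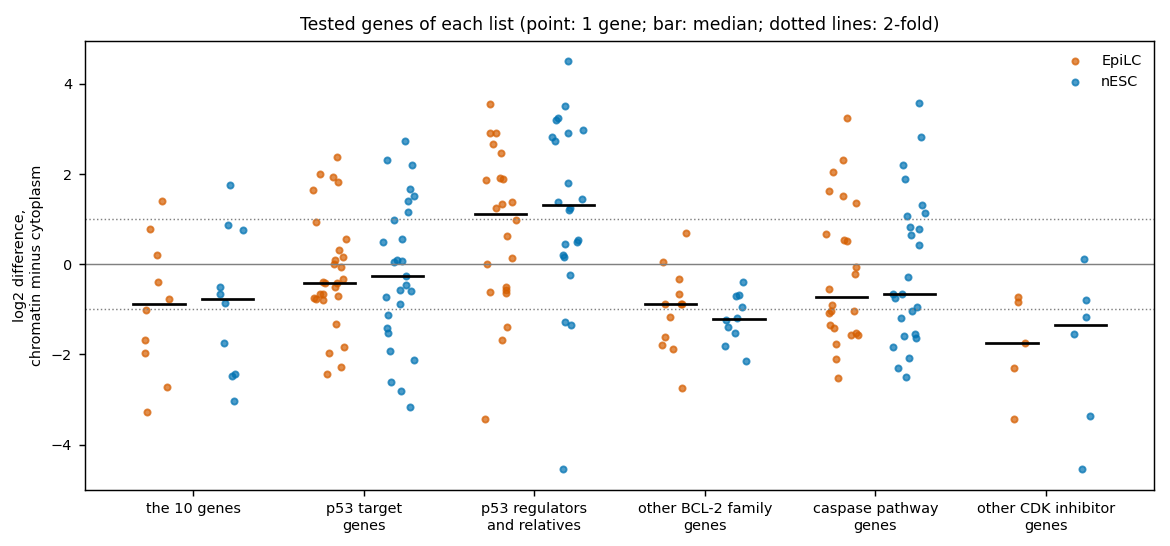
Log2 difference of chromatin minus cytoplasm for the tested genes of each list, with EpiLC left of nESC; points are genes and bars medians. The p53 regulators have medians of 1.12 in EpiLC and 1.32 in nESC, and the other lists have medians below 0.

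In total RNA the largest level difference on these lists belonged to Pmaip1, the gene of the BH3-only protein NOXA and a p53 target, with 24.3 ± 1.33 FPKM in EpiLC and 0.295 ± 0.0664 FPKM in nESC (log2 difference 4.97, not tested). Of the 29 p53 target genes that reached 1 FPKM in a state, 6 were higher in EpiLC by 2-fold or more and 2 lower. Ptpn14 had 13.4 ± 0.457 FPKM in EpiLC and 0.876 ± 0.129 in nESC, and Ddit4 had 78.7 ± 1.36 in EpiLC and 15.9 ± 0.508 in nESC. Ephx1 was among the lower ones, with 2.72 ± 0.219 FPKM in EpiLC and 9.81 ± 1.18 in nESC. Pmaip1 is also on the list of other BCL-2 family genes, of which 5 of 12 were 2-fold or more above nESC and 0 below, with Bok (13.6 ± 0.663 FPKM in EpiLC and 4.47 ± 1.14 in nESC) and Bnip3 (121 ± 2.87 in EpiLC and 49.0 ± 2.57 in nESC). Of 22 p53 regulators 8 were higher and 1 was lower, Cdkn2a, with 9.63 ± 0.427 FPKM in EpiLC and 29.5 ± 1.497 in nESC. Of 25 caspase pathway genes 0 were higher and 2 lower, Tradd (2.27 ± 0.350 FPKM in EpiLC and 11.1 ± 0.0788 in nESC) and Birc3. The background of 18.3% higher and 12.9% lower given above holds for these counts too.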

How the data were processed

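The authors' deposited values are FPKM per gene in 1 table per cell state (12 libraries each), and the tools named are TopHat2 and Cuffnorm, with the build mm10 (GRCm38), per the submitters' processing notes. Versions, annotation, library normalization and strand setting: not given in the sources used here. RNA was fractionated, extracted with TRIzol, depleted of ribosomal RNA and made into stranded libraries, per the labels' protocols. Symbols, coordinates (GRCm38) and exonic lengths came from GENCODE by Ensembl ID (29586 matched, 173 not).

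Fractions were compared within a state with limma 3.58.1 in R 4.3.3 (two-sided, eBayes with an intensity trend) on log2(FPKM + 0.5), with 12 libraries fitted together, a filter at a mean of 1 FPKM and Benjamini-Hochberg adjustment over all tested genes; the interaction used 24 libraries. The fits were tested on simulated data. Levels of the 2 states were not tested. Replicate numbers were not used as pairs. Depth was read from the steps of low values, of which 82.7% to 92.5% lay within 10% of whole multiples. Named were all 10 genes and, per other list, at most 3 genes in each direction by size of difference with at least 5 FPKM in the higher group; some of these are not reported here. The genes, lists and several alternatives were chosen with earlier results of these data known. Alternatives were pseudocounts of 0.1 and 1, no filter, a mean of at least 5 FPKM, centring, scaling to one sum, no trend, the replicate block and each library left out; the length and GC correction (splines with 5 degrees of freedom), the fit without both EpiLC libraries and the level alternatives were added after seeing the data.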

Additional observations from a re-analysis of the deposited data

Results flagged for a closer look

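In 6 cases the fraction contrast of a gene differed between the states by the interaction test (limma, adjusted over all genes), each by less than 2-fold. For chromatin with cytoplasm, EpiLC minus nESC, these were Bbc3 at 0.854 (SE 0.223, adjusted p = 0.0051), Bax at -0.701 (SE 0.160, adjusted p = 0.00177), Mcl1 at -0.444 (SE 0.113, adjusted p = 0.00427) and Bak1 at 0.406 (SE 0.129, adjusted p = 0.0174). For nucleoplasm with cytoplasm they were Bcl2l11 at -0.711 (SE 0.110, adjusted p = 0.000166) and Trp53 at 0.748 (SE 0.153, adjusted p = 0.0018). Without both EpiLC libraries that stood apart, the chromatin values were 0.71 for Bbc3 (adjusted p = 0.0249), -0.97 for Bax (adjusted p = 1.05e-06), -0.54 for Mcl1 (adjusted p = 0.000851) and 0.32 for Bak1, which no longer passed (adjusted p = 0.0513). Bbc3 reached 1.03 and was called without EpiLC chromatin replicate 1.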

How the results depend on the processing

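For genes called in the main fit or under the alternative, signs held for pseudocounts, filters, no trend, centring, the replicate block, the length and GC correction and each library left out. They turned only with scaling to one sum of FPKM: Bbc3 in EpiLC (0.11), Bid (0.79 in EpiLC, 1.28 in nESC), Bcl2l1 (1.40 in EpiLC, 1.42 in nESC), Cdkn1a (1.07 in nESC) and Trp53 (0.22 in nESC) for chromatin with cytoplasm, and Bid (0.18) and Cdkn1a (0.16) in nESC for nucleoplasm with cytoplasm. Genes called under neither setting could turn too, as Cdkn1a in EpiLC did for chromatin with cytoplasm. Scaling to one sum shifts all genes together, as the medians of 1.69 and 1.84 show. Under it the number of the 10 genes called became, in EpiLC, 3 for nucleoplasm with cytoplasm, 4 for chromatin with nucleoplasm and 1 for chromatin with total, and in nESC 3, 5 and 5 for the same pairs, 0 for nucleoplasm with total and 2 for cytoplasm with total. The length and GC correction gave, in EpiLC, 3 for chromatin with cytoplasm, 1 for nucleoplasm with cytoplasm and 0 for cytoplasm with total, in nESC 0, 1, 0 and 0 for nucleoplasm with cytoplasm, chromatin with nucleoplasm, nucleoplasm with total and cytoplasm with total, and 1 (Bax, -1.09) for the chromatin interaction; why was not tested. A pseudocount of 0.1 and centring each gave 1 call for EpiLC nucleoplasm with total (Cdkn1a), centring 2 for nESC nucleoplasm with total, and the 5 FPKM filter, which drops Bcl2l11 in nESC, 1 for nESC chromatin with nucleoplasm. Shares of all genes called under these settings are given above only for chromatin and nucleoplasm with cytoplasm under scaling to one sum. The other counts therefore cannot set the 10 genes apart from a change in all genes.

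With each library left out in turn the counts ran from 5 to 6 for EpiLC chromatin with cytoplasm, from 0 to 1 for EpiLC nucleoplasm with total (1 without nucleoplasm replicate 2 or 3 or total replicate 1) and from 0 to 1 for the chromatin interaction. They ran from 3 to 4 for EpiLC chromatin with total, from 2 to 3 for chromatin with nucleoplasm in both states, from 5 to 7 for nESC nucleoplasm with cytoplasm and from 3 to 5 for nESC cytoplasm with total. Calls gained, beside those in the report, were Bax in nESC cytoplasm with total (1.03 without cytoplasm replicate 2 and 1.04 without total replicate 1) and Bcl2l1 in nESC chromatin with nucleoplasm (1.04 without chromatin replicate 3). Single calls lost, beside Bid in EpiLC chromatin with cytoplasm, were Bid in EpiLC (-0.99 without nucleoplasm replicate 3 and -0.98 without cytoplasm replicate 1, for nucleoplasm with cytoplasm), Cdkn1a in nESC nucleoplasm with cytoplasm (-0.99 without cytoplasm replicate 3) and Bcl2l1 in nESC cytoplasm with total (as low as 0.91). Deviations of same-numbered libraries from their group means were weakly correlated (r -0.22 to 0.18 in EpiLC and -0.13 to 0.15 in nESC, over 18 pairs each). With 3 libraries per group, these values cannot decide whether the numbers pair the samples, which stays unknown. The fit with the replicate block changed no call (6 of the 10 genes in EpiLC chromatin with cytoplasm, 5 in nESC). Depth limits low values most in cytoplasm and chromatin.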

Other observations

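Pmaip1 was higher in EpiLC total RNA (24.3 ± 1.33 FPKM, SD, n = 3) than in any EpiLC fraction, with 7.09 ± 0.276 FPKM in chromatin, 12.3 ± 1.53 in nucleoplasm and 9.05 ± 1.11 in cytoplasm. In nESC it was between 0.207 and 0.332 FPKM on average in every fraction and in total RNA. Bid in nESC total RNA (39.6 ± 0.587 FPKM) stood at the level of nESC cytoplasm (40.5 ± 1.87), whereas in EpiLC total RNA (21.6 ± 0.879) it stood near EpiLC nucleoplasm (18.6 ± 0.646) and chromatin (18.8 ± 3.16).

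Genes of the p53 target and other BCL-2 family lists also passed both thresholds of the chromatin interaction, EpiLC minus nESC. In the main fit of 24 libraries the background was 5.25% higher and 4.41% lower of 11704 genes. Caspase pathway genes are not named here. In the fit without both EpiLC libraries that stood apart, 2 of 24 tested on that list were called higher and 3 lower. In that same fit the p53 targets had 2 higher and 0 lower of 26 tested, and the other BCL-2 family genes 1 higher and 2 lower of 10. The background of that fit is not given. In the main fit Gdf15 (1.60, adjusted p = 8.56e-05) and Ephx1 (1.02, adjusted p = 0.00282) were the p53 targets called. The BCL-2 family genes called there were Bcl2l2 (1.20, adjusted p = 0.000487), Bok (-1.11, adjusted p = 0.0177) and Bnip3 (-1.12, adjusted p = 0.00011). These are values from limma adjusted over all genes, named after they were seen.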
